A study of Mus musculus with 18 samples.

Results

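The 10 genes described here encode chains of the integrins found on leukocytes, and they were taken from the 20298 genes of the deposited table by symbol. They are the alpha chains *Itgae*, *Itgax*, *Itgam*, *Itgal*, *Itga4*, *Itga6* and *Itgav* and the beta chains *Itgb1*, *Itgb2* and *Itgb7*, and all 10 were found in the table. RNA was sequenced from wild-type (WT) mice and from double knockin (DKI) mice, both labelled C57BL/6 (the study's methods name C57BL/6J for the DKI mice), in 6 groups of 3 libraries each. In every cell of the DKI mice both STAT5 proteins, *Stat5a* and *Stat5b*, have a mutated N-domain, so that STAT5 can pair into dimers but the dimers cannot join into tetramers. Day 0 libraries were made from untreated monocytes of each genotype, labelled Ly6C+ CCR2+. Day 3 and day 6 libraries were made from monocyte-derived cells (MDCs) of each genotype after culture with 20 ng/mL GM-CSF, a cytokine that acts through STAT5. The ages of the mice that gave these libraries were not stated in the sources used here. The study's methods describe monocytes enriched from bone marrow by negative selection. The study gives their purity as a lower bound, so the cells need not be pure.

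Liver is the tissue in the labels, while the study's methods describe bone marrow. Summed RPKM of 5 liver markers, including *Alb* and *Ttr*, was between 0 and 0.06 in every library. RPKM is the number of reads per kilobase of counted gene length, scaled by the mapped reads of the library. Levels of different genes can therefore be set side by side, but bias between genes was not checked. Quotients of chains describe RNA and do not give amounts of protein. The libraries held from 29.5 M to 43.2 M mapped reads (median 36.4 M), and Pearson correlations of log2(RPKM + 1) within groups were between 0.908 and 0.972. The study describes 3 independent experiments, and where libraries of a group do not come from separate animals the p-values measure only the spread between these libraries.

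Integrins are heterodimers of 1 alpha and 1 beta chain that bind cells to matrix and to each other, and a chain generally reaches the surface only with a partner. *Itgb2* (CD18) pairs with *Itgal* (CD11a, giving LFA-1), *Itgam* (CD11b, giving Mac-1 or complement receptor 3), *Itgax* (CD11c) and *Itgad*. *Itgb7* pairs with *Itgae* (CD103), which binds E-cadherin on epithelium, and with *Itga4*, which then binds MAdCAM-1 of gut vessels. *Itgb1* pairs with *Itga4* (VLA-4, a receptor for VCAM-1 and fibronectin), *Itga6* (a laminin receptor) and *Itgav* (a receptor for matrix proteins with an RGD motif). CD11b is a general mark of myeloid cells, and CD11c and CD103 are used to tell dendritic cell types apart.

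Before GM-CSF, none of the 8 chains that could be fitted was called between genotypes, and *Itgae* and *Itgax* were too low to be fitted. After 3 days of culture, *Itgae* was lower in DKI than in WT MDCs by a ratio of mean RPKM of 123 (259 without DKI replicate 2), *Itgal* was lower by 2.24, and *Itga6* was higher in DKI by 2.15. The day 3 calls of *Itgal* and *Itga6* were both lost when any 1 library was left out, and that of *Itgal* with the replicate number as a block. After 6 days, *Itgae* was lower in DKI by 41.7, a ratio that rests on DKI replicate 2 and is 333 without it, and no other chain passed the threshold without the block, while *Itgal* passed with it. *Itgax* was lower and *Itgam* higher in all DKI libraries than in any WT library on both days, without passing it. A gene was called at a Benjamini-Hochberg adjusted p under 0.05 over all genes fitted and a fold change over 1.5, in limma on log2(RPKM + 1).

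Counts of called chains have to be read against how much of the whole table moved. On day 3, 2 of the 10 chains were called lower and 1 higher in DKI, while 4.21% of all 9740 genes tested were called lower and 3.21% higher. On day 6, 1 of 10 was called lower and 0 higher, against 4.82% and 2.72% of 9842 genes. Which direction led over all genes on day 6 depends on scaling, as 285 genes were lower and 323 higher with median centring. The libraries of the 2 genotypes did not overlap for 5 of the 10 chains on day 3 and for 4 on day 6, where the shares over all genes tested were 36.3% and 37.2%. The median log2 fold change of the 10 chains was −0.14 on day 3 and −0.18 on day 6, beside −0.11 and −0.17 over all genes.

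On day 0, *Itgae* and *Itgax* were too low to be fitted, and the log2 fold changes of the other 8 chains lay between −0.13 and 0.07, with standard errors from 0.10 to 0.45. None of these 8 chains was called, and limma called 0% of 9179 genes, of which 44 had an unadjusted p under 0.05. limma voom on the recovered reads also called 0 genes. Libraries of the 2 genotypes overlapped for each of these 8 chains, and did not for 1.03% of all genes. *Itgae*, which was not tested, lay between 0.0572 and 0.0739 RPKM in WT and between 0.0811 and 0.111 RPKM in DKI, without overlap, from 11 to 13 and 15 to 16 reads per library.

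**Figure D1:**
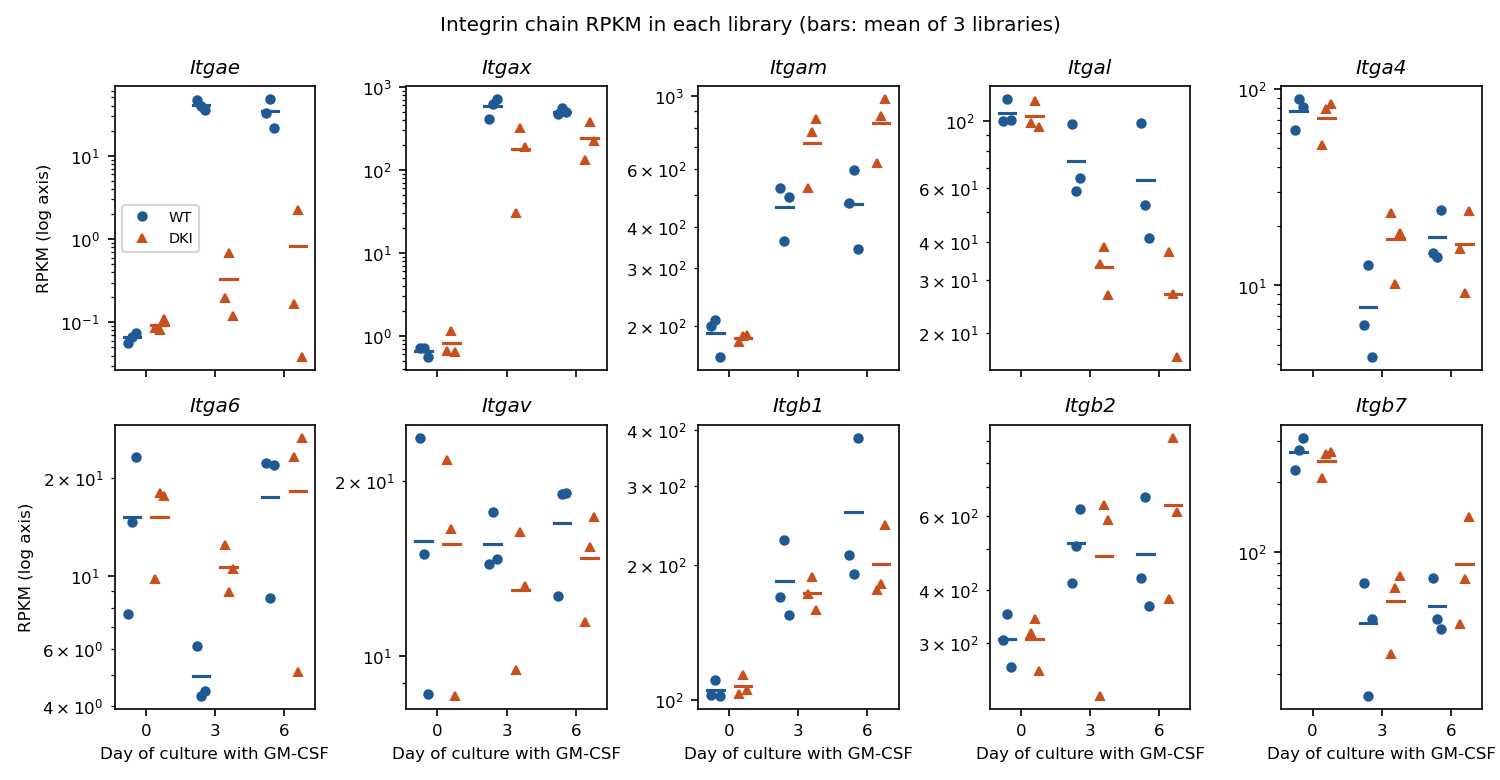
RPKM of each integrin chain (log axis, a separate scale in each panel) in the 18 libraries by day of culture, with WT as circles, DKI as triangles and a bar at the mean of 3 libraries. WT libraries on days 3 and 6 lie between 21.8 and 48.0 RPKM for Itgae, and DKI libraries between 0.0379 and 2.25.

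The order of the chains within a sample changed with culture. On day 0, *Itgb2* with a mean of 307 RPKM and *Itgb7* with 269 RPKM led in WT, and their libraries overlapped. *Itgam* followed at 190 RPKM, *Itgal* at 107 and *Itgb1* at 105, of which the last pair overlapped, and *Itga4* stood at 77.4 RPKM. *Itgav* at 15.8 RPKM and *Itga6* at 15.2 overlapped, and *Itgax* at 0.658 RPKM and *Itgae* at 0.0661 closed the list. The DKI monocytes had the same order on day 0 except that *Itgb1* stood just above *Itgal*, again with overlap. On day 3, *Itgax* at 586 RPKM, *Itgb2* at 516 and *Itgam* at 461 led in WT, each overlapping its neighbour. In DKI, *Itgam* led at 720 RPKM, followed by *Itgb2* at 483 and *Itgax* at 181, and neighbours overlapped here too. *Itgae* was 7th of 10 in WT MDCs at 40.7 RPKM, overlapping *Itgb7*, and 10th in DKI at 0.331 RPKM, below all libraries of the next chain. On day 6 the leading 3 chains kept this order in each genotype, with means of 506, 487 and 472 RPKM for *Itgax*, *Itgb2* and *Itgam* in WT and of 826, 637 and 243 RPKM for *Itgam*, *Itgb2* and *Itgax* in DKI.

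Of the alpha chains that pair with *Itgb2*, *Itgal*, *Itgam* and *Itgax* are among the chains described here and lie on chromosome 7. *Itgax* is the chain of complement receptor 4 and the usual dendritic cell mark in the mouse. In the order of replicates 1, 2 and 3, *Itgax* stood at 0.715, 0.710 and 0.549 RPKM in WT and at 0.658, 1.13 and 0.648 RPKM in DKI on day 0. On day 3 it reached 411, 630 and 718 RPKM in WT and 29.98, 321 and 191 RPKM in DKI. All 6 cultures rose far above the monocytes, and the highest DKI culture stayed below the lowest WT culture.

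Against day 0, *Itgax* rose in WT by 8.43 on the log2 scale (SE 0.22, limma adjusted p = 4.44e-06) and in DKI by 6.11 (SE 0.81, limma adjusted p = 0.0035). In ratios of mean RPKM these are 890 and 222, the latter 136 without DKI day 3 replicate 2. The direct comparison of the genotypes on day 3 gave a log2 fold change of −2.20 (SE 0.84, limma adjusted p = 0.163), which did not pass the threshold. In a fit over all 18 libraries it did, with the same value (limma adjusted p = 0.0245). DKI replicate 1 lay far below the other DKI libraries, and without it the value was −1.20 (limma adjusted p = 0.0969). The test of whether the genotype difference changed from day 0 to day 3 gave −2.32 (SE 0.93, limma adjusted p = 0.248).

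On day 6, *Itgax* stood at 466, 553 and 498 RPKM in WT and at 130, 376 and 223 RPKM in DKI, again without overlap. The log2 fold change was −1.18 (SE 0.38, limma adjusted p = 0.103). Leaving out DKI replicate 2, the highest of its group, brought it past the threshold at −1.56 (limma adjusted p = 0.0329).

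*Itgam*, which marks myeloid cells and as Mac-1 takes up complement-coated particles, had higher means in DKI than in WT cultures. The difference did not pass the threshold in the fits of each day. In monocytes it stood at 200, 210 and 161 RPKM (WT) and at 179, 187 and 189 RPKM (DKI). On day 3 it stood at 525, 364 and 493 RPKM in WT and at 526, 778 and 855 RPKM in DKI. The lowest DKI library was thus level with the highest WT library and the other DKI libraries were above it. On day 6 the values were 474, 598 and 343 RPKM in WT and 625, 873 and 981 RPKM in DKI.

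*Itgam* rose from day 0 to day 3 in WT by 1.26 (SE 0.20, limma adjusted p = 0.00264) and in DKI by 1.93 (SE 0.24, limma adjusted p = 0.00301) on the log2 scale. The genotype difference was 0.63 (SE 0.28, limma adjusted p = 0.219) on day 3 and 0.82 (SE 0.29, limma adjusted p = 0.127) on day 6, neither of which passed. In a fit over all 18 libraries the day 6 value did (limma adjusted p = 0.0313). In ratios of mean RPKM, DKI exceeded WT by 1.56 on day 3 and by 1.75 on day 6.

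*Itgax* and *Itgam* are neighbours on the plus strand of chromosome 7. In cultures *Itgax* was lower and *Itgam* higher in DKI, though neither difference passed the threshold in the fits of each day. Their promoter windows, 250 bases before to 50 bases after a transcription start in RefSeq (GRCm38.p6), are shown for that reason. Capitals mark TGANTCA, the AP-1 motif, in *Itgax* and GAGGAA or its reverse complement, the core bound by PU.1-type ETS factors, in *Itgam*. The *Itgax* window is chr7:128129300-128129599 and the *Itgam* window is chr7:128062390-128062689, both on the plus strand.
Itgax: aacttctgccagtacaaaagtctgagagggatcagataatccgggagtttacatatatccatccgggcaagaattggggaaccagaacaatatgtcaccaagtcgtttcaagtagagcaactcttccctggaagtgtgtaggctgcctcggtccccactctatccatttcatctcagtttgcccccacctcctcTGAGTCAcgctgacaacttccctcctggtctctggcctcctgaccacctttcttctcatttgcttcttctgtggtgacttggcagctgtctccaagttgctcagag
Itgam: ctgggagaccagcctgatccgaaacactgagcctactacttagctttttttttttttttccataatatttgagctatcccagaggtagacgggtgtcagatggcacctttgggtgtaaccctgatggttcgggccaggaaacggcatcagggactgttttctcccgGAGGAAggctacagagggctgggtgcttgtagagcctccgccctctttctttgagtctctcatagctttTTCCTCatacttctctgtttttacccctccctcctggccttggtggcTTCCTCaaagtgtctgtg

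Motifs were searched on both strands in the windows of *Itgax*, *Itgam*, *Itga4*, *Itgav*, *Itgb1* and *Itgb7*, the 6 of 10 chains with an entry. The STAT5-type motif TTCNNNGAA was in none of the 6 windows, and 8.3% of all 32851 RefSeq windows of 300 bases held it. The paper states that STAT5 tetramers can bind non-consensus motifs of lower affinity, which this search did not cover. GAGGAA was found 3 times in the *Itgam* window, 2 times in *Itgav* and 1 time each in *Itgb1* and *Itgb7*, against a share of 28.3% of all windows with at least 1 match. TGANTCA was found in the *Itgax* window only, where 7.81% of all windows hold it. No marked matches overlapped in the windows printed. *Itgae*, *Itgal*, *Itga6* and *Itgb2* had no entry. These matches describe letters within the windows and are not evidence of binding.

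*Itgal*, the alpha chain of LFA-1, which binds ICAM-1 and ICAM-2 on other cells, was the one *Itgb2* partner whose genotype difference passed the threshold on day 3. The gene (Entrez 16408) lies on chromosome 7, from 127296139 to 127335137 (GRCm38.p6). It stood at 100, 118 and 101 RPKM in WT and 98.5, 117 and 95.7 RPKM in DKI on day 0. On day 3 it stood at 97.8, 58.7 and 65.0 RPKM in WT and at 33.7, 38.5 and 26.7 RPKM in DKI. Every DKI culture was lower than every WT culture, and WT replicate 1 stayed near the level of the monocytes. The log2 fold change between genotypes was −1.12 (SE 0.24, limma adjusted p = 0.0462).

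This call of *Itgal* on day 3 was lost in 5 of 8 alternative settings. limma adjusted p was 0.0792 without a filter, 0.0657 with median centring, 0.0525 with quantile normalization, 0.0538 with voom on recovered reads and 0.0684 with the replicate number as a block. It also did not pass when any 1 of the 6 libraries was left out, or replicate 1 of both genotypes, with limma adjusted p between 0.0689 and 0.117. On day 6, *Itgal* stood at 98.4, 52.8 and 41.1 RPKM in WT and at 37.1, 26.8 and 16.6 RPKM in DKI, again without overlap. The difference of −1.20 (SE 0.40) did not pass in the fit without the block (limma adjusted p = 0.113) and did with the block (limma adjusted p = 0.0304) and in a fit over all 18 libraries (limma adjusted p = 0.0161). Same-numbered libraries of the 2 genotypes deviated together on each day, and *Itgal* was lower in DKI in 3 of 3 pairs on both days. The same held on day 0, where the log2 fold change was only −0.04.

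From day 0 to day 3, *Itgal* fell in DKI by 1.63 on the log2 scale (SE 0.20, limma adjusted p = 0.00272). In WT the value was −0.55 (SE 0.21, limma adjusted p = 0.0688) with all libraries and −0.77 (limma adjusted p = 0.0148) without WT day 3 replicate 1. The difference between these 2 changes was −1.08 (SE 0.29, limma adjusted p = 0.0805) and did not pass.

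*Itgb2*, the partner of all these chains, stood between 258 and 352 RPKM in the 6 monocyte libraries. On day 3 it stood at 417, 509 and 623 RPKM in WT and at 225, 636 and 588 RPKM in DKI, where replicate 1 was lower than any monocyte library. *Itgb2* rose from day 0 to day 3 in WT by 0.74 (SE 0.20, limma adjusted p = 0.023). This call was lost without WT day 0 replicate 3, WT day 3 replicate 2 or WT day 3 replicate 3 (limma adjusted p from 0.0582 to 0.0767), and in 3 of 8 alternative settings (limma adjusted p from 0.0529 to 0.118). In DKI the value was 0.53 (SE 0.42, limma adjusted p = 0.355), and without DKI day 3 replicate 1 it was 1.005 (limma adjusted p = 0.0115). The genotypes overlapped on both days, with log2 fold changes of −0.22 (SE 0.44) on day 3 and 0.35 (SE 0.39) on day 6.

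Set against each other, the *Itgb2* partners changed their proportions. On day 0, *Itgam* made up 63.8% ± 2.57 (SD, n = 3) of the summed RPKM of *Itgal*, *Itgam*, *Itgax* and *Itgad* in WT and 63.9% ± 2.50 in DKI, *Itgal* 35.9% ± 2.59 and 35.8% ± 2.41, and *Itgax* 0.221% ± 0.0146 and 0.279% ± 0.0808. On day 3, *Itgax* made up 51.9% ± 10.7 in WT and 17.04% ± 11.6 in DKI, and *Itgam* 41.3% ± 8.43 in WT and 79.1% ± 10.4 in DKI. On day 6 the shares of *Itgax* were 49.1% ± 6.41 in WT and 21.4% ± 7.07 in DKI, and those of *Itgam* 44.7% ± 5.46 and 75.9% ± 6.53.

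The shares of *Itgax*, *Itgam* and *Itgad* did not overlap between genotypes on days 3 and 6. The exact two-sided permutation test gave p = 0.1 for each of these 6 differences, the smallest that 3 against 3 libraries allow, and 0.2 after adjustment over 12 comparisons. The 6 differences are not independent, since the shares of a library add up to the whole. *Itgal* made up 6.71% ± 2.39 of the sum in WT and 3.86% ± 1.67 in DKI cultures at 3 days, with overlap between the groups, and was lower in DKI in 3 of 3 same-numbered pairs. *Itgad* stayed below 0.03% of the sum in every library. *Itgad* itself had means between 0.0200 and 0.25 RPKM, under the filter for limma. Summed alpha RPKM per *Itgb2* RPKM came to 0.971 ± 0.0328 for WT and 0.956 ± 0.130 for DKI monocytes, 2.20 ± 0.246 and 2.08 ± 0.469 on day 3, and 2.21 ± 0.346 and 1.82 ± 0.374 on day 6.

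**Figure D2:**
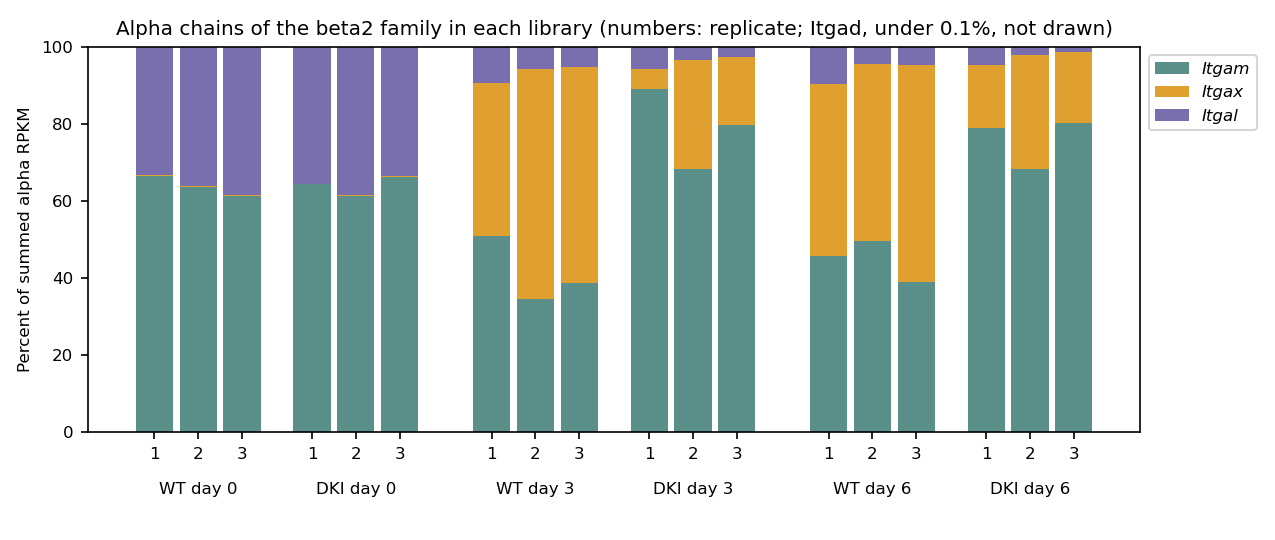
Share of Itgam, Itgax and Itgal in the summed RPKM of the Itgb2 partner chains (percent, stacked), 1 bar per library. Itgax takes 39.7% to 59.8% in WT and 5.08% to 28.2% in DKI cultures on day 3, and under 1% in all monocyte libraries.

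*Itgae*, whose protein CD103 with *Itgb7* binds E-cadherin, showed the widest genotype difference of the 10 chains on both days. The gene (Entrez 16407) is on chromosome 11, from 73090505 to 73147449 (GRCm38.p6). Monocytes held almost none, with 0.0572, 0.0672 and 0.0739 RPKM in WT and 0.0844, 0.0811 and 0.111 RPKM in DKI, which are 11 to 16 reads per library. On day 3 WT cultures reached 47.1, 39.9 and 35.0 RPKM, from 7602, 6864 and 5143 reads. DKI cultures held 0.195, 0.678 and 0.119 RPKM, from 35, 122 and 17 reads. WT cultures thus gained the transcript in all 3 libraries, and DKI cultures stayed within 1 RPKM.

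The genotype difference on day 3 was −4.98 on the log2(RPKM + 1) scale (SE 0.21, limma adjusted p = 0.00147). This scale understates the change of low genes, and limma voom on recovered reads gave −7.24 (SE 0.59, limma adjusted p = 0.00817). The call held in each of 8 alternative settings and with any library left out. Since these are bulk libraries, fewer cells that express *Itgae* and less *Itgae* RNA per cell cannot be told apart, which holds for every chain here.

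On day 6, *Itgae* stood at 32.7, 48.0 and 21.8 RPKM in WT and at 0.167, 2.25 and 0.0379 RPKM in DKI. DKI replicate 2 was the highest of its group on both days, and it stayed below every WT culture. The difference was −4.41 (SE 0.50, limma adjusted p = 0.0107). It held when any single library was left out, but not without replicate 1 of both genotypes, where it was −4.19 (limma adjusted p = 0.121).

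In WT, *Itgae* rose from day 0 to day 3 by 5.28 on the log2 scale (SE 0.16, limma adjusted p = 6.25e-06), a ratio of mean RPKM of 615. In DKI it was below the filter on both days and was not tested, and the ratio of mean RPKM was 3.59, or 1.70 without DKI day 3 replicate 2. The change of the genotype difference from day 0 to day 3 was −5.02 (SE 0.27, limma adjusted p = 1.47e-05). No other chain passed this test, for which 2.91% of 10212 genes were called. From day 3 to day 6 the genotype difference of *Itgae* changed by 0.58 (SE 0.58, limma adjusted p = 1), and limma called 0% of 9985 genes, of which 89 had an unadjusted p under 0.05. limma voom called 0 there too.

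*Itgb7*, the partner of *Itgae*, went down in both genotypes while *Itgae* went up in WT. It stood at 225, 273 and 309 RPKM (WT) and at 207, 263 and 267 RPKM (DKI) in monocytes. On day 3 it stood at 73.6, 24.2 and 51.7 RPKM in WT and at 36.7, 70.5 and 78.9 RPKM in DKI. It fell by 2.53 on the log2 scale in WT (SE 0.38, limma adjusted p = 0.00221) and by 2.03 in DKI (SE 0.32, limma adjusted p = 0.00561). The genotypes overlapped on day 3 (log2 fold change 0.37, SE 0.47) and on day 6 (0.49, SE 0.40), and DKI day 6 replicate 3 was the highest culture at 141 RPKM.

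*Itga4*, which pairs with both *Itgb7* and *Itgb1*, also fell in both genotypes. In monocytes it stood at 61.8, 89.3 and 81.1 RPKM (WT) and at 52.3, 78.9 and 84.1 RPKM (DKI), and on day 3 at 6.29, 12.7 and 4.29 RPKM in WT and 23.4, 10.1 and 18.5 RPKM in DKI. It fell by 3.26 on the log2 scale in WT (SE 0.35, limma adjusted p = 0.00062). In DKI the log2 change was −2.03 (SE 0.34, limma adjusted p = 0.0067). The genotype difference on day 3 was 1.11 (SE 0.43, limma adjusted p = 0.164) with overlap, and on day 6 it was −0.17 (SE 0.37, limma adjusted p = 0.786).

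The promoter windows of *Itga4* and *Itgb7*, which both fell in WT and DKI cultures, are given for comparison with those above, with the PU.1-type match of *Itgb7* in capitals and no match to the 3 motifs in *Itga4*. The *Itga4* window is chr2:79255176-79255475 on the plus strand and the *Itgb7* window is chr15:102231886-102232185 on the minus strand (RefSeq, GRCm38.p6).
Itga4: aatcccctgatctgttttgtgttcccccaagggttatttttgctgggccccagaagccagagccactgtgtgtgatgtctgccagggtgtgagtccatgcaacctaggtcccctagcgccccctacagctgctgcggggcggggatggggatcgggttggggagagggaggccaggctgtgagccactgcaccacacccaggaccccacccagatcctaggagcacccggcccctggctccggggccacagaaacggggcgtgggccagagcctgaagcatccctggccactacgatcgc
Itgb7: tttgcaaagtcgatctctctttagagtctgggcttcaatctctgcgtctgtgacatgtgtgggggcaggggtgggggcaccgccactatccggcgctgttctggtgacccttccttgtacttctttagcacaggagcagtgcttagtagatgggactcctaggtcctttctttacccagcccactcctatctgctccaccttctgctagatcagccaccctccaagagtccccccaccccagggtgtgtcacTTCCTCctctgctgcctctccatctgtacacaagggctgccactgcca

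In monocytes, *Itgae* plus *Itga4* RPKM came to 0.289 ± 0.0346 of *Itgb7* RPKM for WT and 0.290 ± 0.0322 for DKI. On day 3 the quotient was 1.22 ± 0.824 in WT and 0.344 ± 0.262 in DKI, and on day 6 it was 0.928 ± 0.298 and 0.213 ± 0.0918. Single libraries weighed on the day 3 means, which were 0.743 in WT without replicate 2 and 0.195 in DKI without replicate 1. On day 3, *Itgae* to *Itgb7* alone had a mean quotient of 0.988 in WT, or 0.659 without replicate 2, and of 0.0055 in DKI, or 0.0034 without replicate 2. On the log2((alpha + 1)/(beta + 1)) scale this was a difference of −5.36, and on day 6 of −4.89.

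Over 8 pairs of chains and 3 days, 24 quotients of alpha to beta were compared by exact two-sided permutation tests. Libraries of the 2 genotypes did not overlap in 5 of them, which were *Itgae/Itgb7* and *Itgax/Itgb2* on days 3 and 6 and *Itga6/Itgb1* on day 3. Each of the 5 had an exact permutation p of 0.1, the smallest possible, and 0.48 after adjustment. On day 3, *Itgax* RPKM divided by *Itgb2* RPKM gave 1.13 in WT and 0.321 in DKI, and on day 6 1.09 and 0.372. For *Itgam* these were 0.923 and 1.67 on day 3, and 0.980 and 1.40 on day 6, with overlap between the groups. Between same-numbered libraries, the quotient to *Itgb2* was higher in DKI for *Itgam* and lower for *Itgal* in 3 of 3 pairs on each of these days (exact two-sided sign-flip permutation p = 0.25 on each, the smallest that 3 pairs allow).

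**Figure D3:**
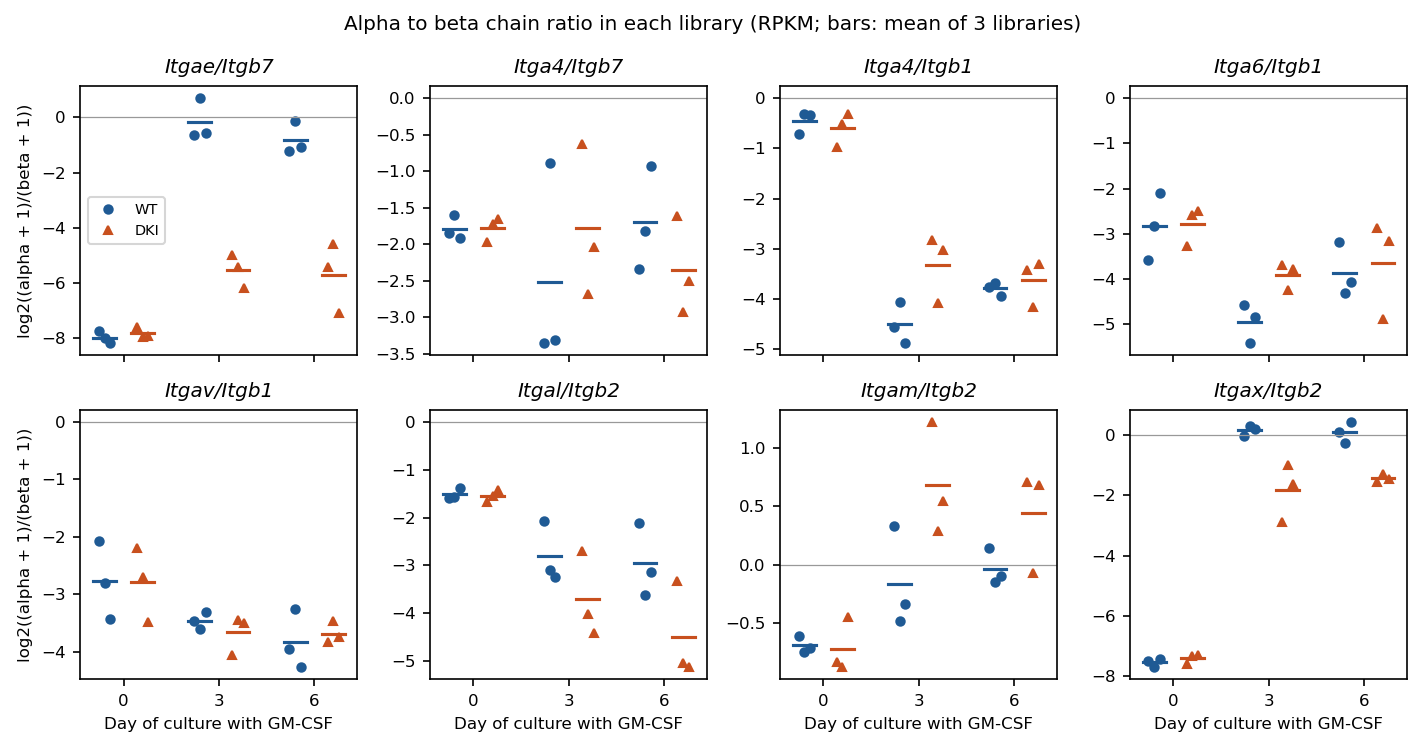
log2((alpha RPKM + 1)/(beta RPKM + 1)) for 8 pairs of chains in each library by day of culture, with WT as circles, DKI as triangles and a bar at the mean of 3 libraries (a separate scale in each panel). On day 3 the mean Itgae/Itgb7 value is −0.16 in WT and −5.52 in DKI, and the mean Itgax/Itgb2 value is 0.16 in WT and −1.82 in DKI.

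*Itgb1*, the most widely shared beta chain, rose modestly in both genotypes. It stood between 102 and 114 RPKM in the 6 monocyte libraries, at 169, 227 and 155 RPKM in WT and at 172, 187 and 159 RPKM in DKI on day 3. The log2 change was 0.78 in WT (SE 0.18, limma adjusted p = 0.0107) and 0.68 in DKI (SE 0.17, limma adjusted p = 0.0209). The DKI call was lost without DKI day 0 replicate 1, 2 or 3 or without DKI day 3 replicate 2 (limma adjusted p from 0.0608 to 0.0689). Genotypes overlapped on days 3 and 6, with log2 fold changes of −0.07 (SE 0.21), which turned to 0.007 with median centring, and −0.33 (SE 0.31). The highest *Itgb1* library was WT day 6 replicate 3 at 384 RPKM.

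*Itga6*, a laminin receptor chain, was higher in DKI than in WT cultures on day 3. The gene (Entrez 16403) lies on chromosome 2, from 71786886 to 71858427 (GRCm38.p6). Its level stood at 6.12, 4.30 and 4.44 RPKM in WT and at 12.5, 8.97 and 10.5 RPKM in DKI, without overlap. The log2 fold change was 0.97 (SE 0.19, limma adjusted p = 0.0329), and with the block limma adjusted p was 0.0344. The call was lost when any 1 of the 6 libraries or replicate 1 of both genotypes was left out, with limma adjusted p between 0.0507 and 0.114. It was also lost without a filter (limma adjusted p = 0.0721) and in a fit over all 18 libraries (limma adjusted p = 0.227).

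*Itga6* varied more among libraries at the other times. Monocytes ranged from 7.67 to 23.1 RPKM in WT and from 9.78 to 17.98 RPKM in DKI. It fell from day 0 to day 3 in WT by 1.33 on the log2 scale (SE 0.36, limma adjusted p = 0.0213), a call lost without WT day 0 replicate 2, WT day 3 replicate 2 or WT day 3 replicate 3 (limma adjusted p from 0.0642 to 0.0709). In DKI the value was −0.43 (SE 0.26, limma adjusted p = 0.235), and the difference between the 2 changes was 0.90 (SE 0.49, limma adjusted p = 0.418). On day 6 it stood at 22.1, 8.57 and 21.9 RPKM in WT and at 23.1, 5.08 and 26.5 RPKM in DKI, where replicate 2 was the lowest in each genotype. The genotype difference on day 6 was −0.11 (SE 0.65), which turned to 0.035 with median centring and 0.016 with quantile normalization.

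*Itgav*, the alpha chain shared by receptors for vitronectin and other matrix proteins, passed no test between genotypes or days. It ranged from 8.54 to 23.8 RPKM over the 6 monocyte libraries, from 9.46 to 17.7 RPKM on day 3 and from 11.4 to 19.1 RPKM on day 6. The log2 fold change between genotypes was −0.27 (SE 0.21, limma adjusted p = 0.459) on day 3 and −0.18 (SE 0.23, limma adjusted p = 0.619) on day 6, with DKI lower in 3 of 3 pairs on each day. *Itga4*, *Itga6* and *Itgav* together came to 1.03 ± 0.106 of *Itgb1* RPKM for WT monocytes and 0.955 ± 0.124 for DKI. On day 3 this quotient was 0.154 ± 0.00360 for WT and 0.239 ± 0.0436 for DKI, and on day 6 0.208 ± 0.0338 and 0.242 ± 0.0675. It leaves out other partners of *Itgb1*, and with *Itga1* and *Itga5* added, a choice made with their values known, the day 3 quotient was 0.597 ± 0.0838 for WT and 0.591 ± 0.0590 for DKI, with overlap.

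**Figure D4:**
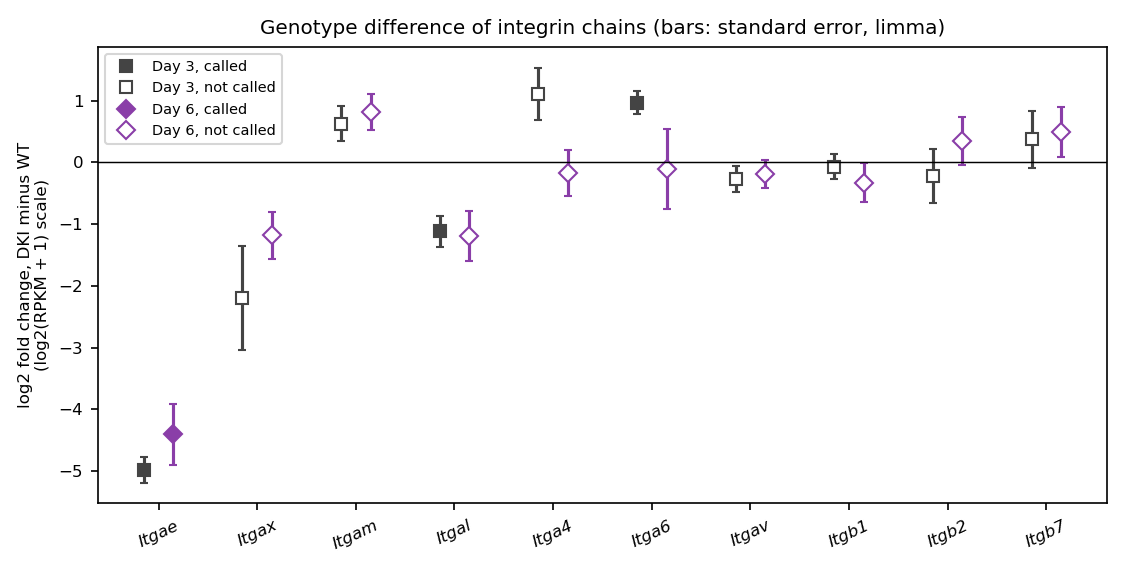
log2 fold change of each integrin chain in DKI against WT cultures on day 3 (squares) and day 6 (diamonds), on the log2(RPKM + 1) scale with standard errors from limma. Filled symbols passed the threshold, namely Itgae at −4.98, Itgal at −1.12 and Itga6 at 0.97 on day 3 and Itgae at −4.41 on day 6.

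Across the first 3 days, 8 of 10 chains changed in WT, with 5 higher and 3 lower, and 6 of 9 tested changed in DKI, with 3 higher and 3 lower. Over all genes, 20.3% were called higher and 22.8% lower of 9938 in WT, and 13.1% and 21.1% of 9922 in DKI. *Itgax*, *Itgam* and *Itgb1* were called higher, and *Itga4* and *Itgb7* lower, in each genotype. Both comparisons use a day 0 group of their own genotype.

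Between days 3 and 6 no chain was called in either genotype. limma called 0% of 9613 genes in WT and 0% of 9540 in DKI, of which 722 and 93 had an unadjusted p under 0.05, and limma voom called 0 in both. In WT, libraries of the 2 days did not overlap for 2 of 10 chains, where the share of all genes was 14.3%. These were *Itga6*, with a log2 change of 1.54 (SE 0.36, limma adjusted p = 0.631), and *Itga4*, with 1.17 (SE 0.38, limma adjusted p = 0.632). In DKI no chain separated the 2 days, which 4.43% of all genes did, and the 9 chains tested had log2 changes between −0.34 and 0.84. Same-numbered libraries of days 3 and 6 also deviated together in each genotype. Within these pairs, *Itgax*, *Itgam*, *Itgb2* and *Itgb7* were higher on day 6 in 3 of 3 in DKI, and *Itga4* and *Itga6* in 3 of 3 in WT. The share of all genes higher in 3 of 3 pairs was not computed. With the replicate number as a block limma called 0 genes in either genotype, with 1221 (WT) and 471 (DKI) at an unadjusted p under 0.05.

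Of 16 other integrin chains in the table, 4 passed the filter on day 3, and 1 was called higher and 0 lower in DKI, where 3.21% and 4.21% of all genes were. Their median log2 fold change was 0.78, beside −0.11 over all genes. Also tested were *Itga1* and *Itga5*, named here with their values known. *Itga1*, a collagen receptor chain, had means of 52.4 RPKM in WT and 30.7 RPKM in DKI (−0.82, SE 0.30, limma adjusted p = 0.15), without overlap, and *Itga5*, a fibronectin receptor chain, of 26.8 and 30.3 RPKM (0.14, SE 0.30, limma adjusted p = 0.798). The chain that was called was *Itgb5*, which joins *Itgav* in a vitronectin receptor. It stood between 8.69 and 14.3 RPKM (WT) and between 9.23 and 11.5 RPKM (DKI) in monocytes, and on day 3 between 5.15 and 11.5 RPKM in WT and between 30.2 and 39.9 RPKM in DKI.

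*Itgb5* was thus higher in each DKI culture than in any WT culture on day 3, with a log2 fold change of 1.87 (SE 0.30, limma adjusted p = 0.0197). On day 6 it ranged from 5.62 to 20.5 RPKM in WT and from 32.8 to 43.9 RPKM in DKI (1.68, SE 0.42, limma adjusted p = 0.0599). *Itgb3*, another *Itgav* partner and a chain of platelet integrins, had means of 1.17 RPKM in WT and 5.46 RPKM in DKI on day 3 (1.43, SE 0.45, limma adjusted p = 0.11). *Itgb8* had means between 0.0554 and 0.439 RPKM and was not tested. Over the same days *Itgav* itself did not pass.

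Among 21 ligands of integrins in the table, 13 were tested on day 3 and 0 were called, where limma called 4.21% of all genes lower and 3.21% higher, and their median log2 fold change was −0.36 beside −0.11 over all genes. On day 6, 12 were tested, of which 1 was called higher and 0 lower, beside 2.72% and 4.82% of all genes, with a median of −0.26 beside −0.17. The one called was *Icam2*, a ligand of LFA-1, with means of 3.56 RPKM in WT and 9.63 RPKM in DKI on day 6 (log2 fold change 1.17, SE 0.26, limma adjusted p = 0.0485, and 0.0515 with the block). *Mfge8*, a bridging protein that *Itgav* receptors bind, *Cdh1*, *C3* and *Spp1* were picked with their values known, and none passed in the fit without the block. *Mfge8* had means of 2098 RPKM in WT and 327 RPKM in DKI on day 3 (−2.94, SE 0.67, limma adjusted p = 0.0502), without overlap, and passed with the block (limma adjusted p = 0.0266), while on day 6 the genotypes overlapped (−0.74, SE 0.90, limma adjusted p = 0.615). *Cdh1*, which encodes the E-cadherin that CD103 binds, had means of 163 RPKM in WT and 42.2 RPKM in DKI on day 3 (−2.13, SE 0.56, limma adjusted p = 0.0736), without overlap, and overlapped on day 6 (−1.66, SE 0.83, limma adjusted p = 0.243). *C3*, whose fragment iC3b is bound by Mac-1, had means of 91.7 RPKM in WT and 405 RPKM in DKI on day 3 (1.82, SE 0.60, limma adjusted p = 0.122), without overlap, and overlapped on day 6 (−0.11, SE 0.85, limma adjusted p = 0.944). *Spp1*, which encodes osteopontin, overlapped on day 3 (0.95, SE 0.54, limma adjusted p = 0.316) and had means of 533 RPKM in WT and 1870 RPKM in DKI on day 6 (2.08, SE 0.55, limma adjusted p = 0.0682), without overlap.

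Of 20 genes of integrin activation, 16 were tested on each day. On day 3, 1 was called lower and 1 higher, where 4.21% and 3.21% of all genes were, and on day 6 1 lower and 0 higher, where 4.82% and 2.72% were. *Rassf5*, a Rap1 effector that binds the tail of the *Itgal* chain, was lower in DKI on day 3, at 22.6 RPKM against 51.9 RPKM in WT (log2 fold change −1.13, SE 0.24, limma adjusted p = 0.0421, and 0.0875 with the block). *Fyb*, an adapter (ADAP) that links immune receptors to integrin activation, was higher in DKI, at 107 RPKM against 14.8 RPKM (2.71, SE 0.29, limma adjusted p = 0.00799). In monocytes, *Fyb* had means of 75.9 RPKM (WT) and 74.1 RPKM (DKI), and on day 6 it missed the threshold (1.72, limma adjusted p = 0.0574) but passed with the block (limma adjusted p = 0.0322). On day 6 *Cyth1*, which encodes cytohesin-1, a protein that binds the tail of the *Itgb2* chain, was lower in DKI, at 31.6 RPKM against 79.0 RPKM (−1.27, SE 0.22, limma adjusted p = 0.0276). The median log2 fold changes of this list were −0.12 on day 3 and −0.04 on day 6, beside −0.11 and −0.17 over all genes.

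Of 28 genes of integrin signalling and adhesion complexes, 25 were tested on each day, with 1 called lower and 1 higher on each, beside 4.21% and 3.21% of all genes on day 3 and 4.82% and 2.72% on day 6. *Lpxn*, the leukocyte member of the paxillin family, was higher in DKI on both days, at 75.8 RPKM against 21.7 RPKM on day 3 (log2 fold change 1.76, SE 0.18, limma adjusted p = 0.0069) and at 68.4 RPKM against 17.5 RPKM on day 6 (1.92, SE 0.22, limma adjusted p = 0.0108). *Zyx*, a focal adhesion protein, was lower in DKI on day 3, at 277 RPKM against 710 RPKM (−1.33, SE 0.24, limma adjusted p = 0.0274). *Actn1*, which encodes an actin cross-linking alpha-actinin, was lower on day 6, at 58.6 RPKM against 145 RPKM (−1.35, SE 0.26, limma adjusted p = 0.0362, and 0.0523 with the block). The median log2 fold changes were −0.01 and −0.15, beside −0.11 and −0.17 over all genes.

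Over the 18 libraries, 3 of 10417 genes were nearest to *Itgae* by the mean absolute difference of centred log2(RPKM + 1). They were *Lta*, a cytokine of the tumor necrosis factor family, at 0.441, *Enah*, an actin regulator, at 0.451, and *Slc27a3*, of a family of fatty acid transporters, at 0.500. *Lta* had means of 29.1 RPKM in WT and 0.184 RPKM in DKI on day 3, and 16.96 and 0.132 RPKM on day 6. *Enah* had means of 30.2 and 1.38 RPKM on day 3, and *Slc27a3* of 47.7 and 1.40 RPKM. These genes were chosen for their likeness and their values are a description.

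Markers of other cells that carry these integrins were read in the same libraries. Of 6 T cell markers, *Cd3e*, *Cd3d* and *Trac* stayed under 1 RPKM in all libraries and their list summed to at most 0.902 RPKM in WT day 3 cultures, where *Itgae* was high. The T cell sum reached 53.2 RPKM in DKI on day 3, with *Cd4* at 53.2 RPKM in 1 library, and on day 6 it reached 3.10 RPKM in WT and 59.7 RPKM in DKI, with *Cd4* at 59.4 RPKM. *Cd3g* reached 1.79 RPKM in DKI on day 3, 2.53 RPKM in WT on day 6 and 8.79 RPKM in DKI on day 6. The 4 natural killer cell markers summed to at most 0.56 RPKM in any library. The 5 conventional dendritic cell markers summed to 69.2 to 539 RPKM in WT and 4.47 to 18.4 RPKM in DKI on day 3, and to 83.1 to 371 RPKM and 5.17 to 23.8 RPKM on day 6. In WT most of this sum was *Cd209a*, with means of 245 RPKM in WT and 5.92 RPKM in DKI on day 3. *Xcr1* and *Clec9a* mark a conventional type that can carry CD103. On day 3 they had means of 0.109 and 0.857 RPKM in WT and of 0.0971 and 1.01 RPKM in DKI. *Zbtb46*, a transcription factor that marks conventional dendritic cells, had means of 0.279 RPKM in WT and 0.312 RPKM in DKI on day 0, of 13.5 and 2.64 RPKM on day 3 and of 14.3 and 3.66 RPKM on day 6, and on both culture days its genotypes did not overlap. *Flt3* had means of 1.08 RPKM in WT and 0.805 RPKM in DKI on day 3, and of 2.34 and 0.773 RPKM on day 6.

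The 6 genes listed as monocyte markers summed to 10929 to 17318 RPKM in WT and 11649 to 14749 RPKM in DKI on day 0. On day 3 they summed to 1190 to 3375 RPKM in WT and 8217 to 20120 RPKM in DKI, without overlap. Most of this sum was *Lyz2*, with means of 1894 RPKM in WT and 13030 RPKM in DKI, and *Csf1r*, *Ly6c2* and *Cd14* were also higher in each DKI library than in any WT library. *Fcgr1* overlapped, as did *Ccr2* with means of 160 and 178 RPKM. The paper counts *Fcgr1* as a macrophage signature gene, so these sums do not tell monocytes from macrophages. From day 0 to day 3 in DKI, mean *Fcgr1* went from 13.7 to 220 RPKM and mean *Csf1r* from 262 to 650 RPKM. Mean *Lyz2* in DKI was also higher on day 3, while the DKI means of *Ly6c2*, *Ccr2* and *Cd14* were lower. On day 6 the sums were 2501 to 3588 RPKM in WT and 9197 to 13591 RPKM in DKI, and of the 6 markers *Lyz2* alone did not overlap. The 6 neutrophil markers summed to 859 to 1225 RPKM in the monocyte libraries and varied from 4.04 to 515 RPKM in WT and from 25.4 to 493 RPKM in DKI on day 3. The 5 platelet markers, of which *Itga2b* is itself an integrin chain, summed to 32.6 to 193 RPKM on day 0 and to 3.73 to 63.9 RPKM in WT and 24.6 to 112 RPKM in DKI on day 3. The 5 markers of mast cells and basophils, which carry some of these integrins too, summed to 0.967 to 16.5 RPKM in WT and 5.81 to 11.3 RPKM in DKI on day 3. On day 6 they summed to 15.02 to 95.8 RPKM in WT and 2.33 to 18.3 RPKM in DKI, with *Cpa3* at means of 38.1 and 8.80 RPKM. The 3 eosinophil markers summed to 128 to 460 RPKM in the monocyte libraries and to 5.06 to 33.6 RPKM on day 3. The 5 B cell markers summed to 2.998 to 13.995 RPKM in WT and 3.28 to 12.01 RPKM in DKI on day 0, and to 0.317 to 0.473 RPKM and 1.26 to 7.10 RPKM on day 3. Over the same days *Itgb7* and *Itga4* fell in both genotypes. The part of these cells in the integrin values was not tested.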

How the data were processed

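RNA was sequenced from 18 libraries, WT and DKI monocytes on day 0 and MDCs on days 3 and 6, with 3 libraries per group taken from the sample labels. The authors aligned single-end reads to mm10 with Subread, counted RefSeq genes with featureCounts and deposited RPKM, while versions, strandedness and the treatment of multi-mapping reads are not given in the sources used here. All 18 value columns were used. The authors called genes with edgeR on counts, which were not used here, and their thresholds on fold change, adjusted p and RPKM were kept.

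Symbols and positions came from RefSeq GRCm38.p6, in which 20082 identifiers were found and 216 were not. From the value of 1 read in 1168 single-exon receptor genes, gene lengths, depth and whole reads were recovered, with all 18 values whole within 0.05 of a read in 10836 of 10836 genes above 2 RPKM. Depth limits the precision of low values, and read numbers show counting error only.

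log2(RPKM + 1) of genes with a mean above 2 RPKM in a group compared was fitted with limma 3.58.1 (eBayes with trend) in R 4.3.3 for each comparison, and the steps were tested on simulated data. The difference of genotype effects between days was fitted as an interaction in 12 libraries. Quotients, shares and permutation tests were computed with scipy 1.17.1, pandas 2.3.3 and numpy 2.4.6 (Python 3.11.15) and plotted with matplotlib 3.10.9. Alternatives were pseudocount, filter, scaling, fit over all 18 libraries, replicate block and left-out libraries, and limma voom on recovered reads was added after the data were seen.

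Replicate numbers came from the labels. Deviations of same-numbered WT and DKI libraries correlated at 0.865, 0.686 and 0.844 on day 0, 0.163, 0.369 and 0.246 on day 3 and 0.338, 0.405 and 0.413 on day 6, so the numbers were taken to pair the genotypes. Between days 3 and 6 they correlated at 0.68, 0.287 and 0.125 in WT and 0.743, 0.628 and 0.32 in DKI, and the numbers were taken to pair these days too. The names of the 4 cultured libraries numbered 1 hold an earlier year than all other names.

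The chains and gene lists were chosen with earlier results of these data known. Named in the text are the 10 chains, their partners *Itgad*, *Itgb3*, *Itgb5* and *Itgb8*, genes of 4 lists (other chains, ligands, activation, signalling and adhesion complexes) called between genotypes on day 3 or 6 (at most 8 per list), and the 3 genes nearest in pattern to a chain called on both days. *Itga1*, *Itga5*, *Mfge8*, *Cdh1*, *C3* and *Spp1* were named outside this rule, with their values known.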

Additional observations from a re-analysis of the deposited data

Results flagged for a closer look

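In 3 genes named above, the difference between DKI and WT changed from day 0 to day 3 in the limma test of that change over 12 libraries. For *Itgae* the change was −5.02 (SE 0.27, limma adjusted p = 1.47e-05), with WT means of 0.0661 RPKM on day 0 and 40.7 RPKM on day 3. For *Itgb5* it was 1.98 (SE 0.38, limma adjusted p = 0.0203), with DKI means of 10.6 RPKM on day 0 and 34.7 RPKM on day 3. For *Fyb* it was 2.75 (SE 0.34, limma adjusted p = 0.0023), with WT means of 75.9 RPKM on day 0 and 14.8 RPKM on day 3. Groups of 3 libraries are too small for a test of single outlying libraries, and no explanation of these differences was tested.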

How the results depend on the processing

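With all libraries kept, 453 of 472 values of the chains kept their direction and their side of the threshold over the alternatives run, 10 lost and 4 gained a call and 5 changed sign. All 48 such ratios kept their direction, though with the replicate block a ratio keeps its value by construction. The filter, the block and the fit over all 18 libraries likewise leave a log2 fold change as it is. These settings can move only its call. The sign changes were in values close to 0, with 0.007 for *Itgb1* on day 3 and 0.035 for *Itga6* on day 6 (median centring), 0.016 for *Itga6* on day 6 and 0.002 for *Itgav* in DKI from day 0 to 3 (quantile normalization), and −0.002 for *Itgam* in WT from day 3 to 6 (voom). Median centring moved the median log2 fold change of all genes on day 6 from −0.167 to −0.023. Without a filter, genes called lower and higher in DKI were 205 and 153 on day 3 and 127 and 60 on day 6, with 1 chain lower and 0 higher on day 3, and the change of genotype effect from day 0 called 81 higher. In the fit over all 18 libraries they were 795 and 564 on day 3, with 3 chains lower, *Itgax* among them (−2.202, limma adjusted p = 0.0245), and 0 higher, and 1054 and 519 on day 6, with 2 chains lower, *Itgae* and *Itgal*, and 1 higher, *Itgam*. That fit called 6 genes higher on day 0 and 16 in WT from day 3 to 6. Genes lower and higher on day 6 were 285 and 323 with median centring and 310 and 342 with quantile normalization. Higher genes thus outnumbered lower ones, while the fit without scaling called 474 lower and 268 higher. Each scaling called 1 chain lower on day 3. *Itgal* on day 3 was lost in 5 of 8 such settings (limma adjusted p from 0.0525 to 0.0792). voom called 1 chain lower on day 3, 292 and 174 genes lower and higher on day 6, and 36 and 54 for the change from day 0 to 3. With the replicate block, 1 chain was lower on day 3 and 2 on day 6, through *Itgal* in both cases. In WT from day 0 to day 3 the call of *Itgb2* was lost without a filter (limma adjusted p = 0.0529), over all 18 libraries (0.118) and with the block (0.0615), where the numbers do not pair the libraries. The block changed no other call of a chain. The cause of these changes was not tested.

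With a library left out, genes called lower and higher in DKI ranged from 107 to 389 and from 83 to 326 on day 3, and from 12 to 655 and from 26 to 329 on day 6. The lowest counts lower came without WT replicate 1 on day 3 and without replicate 1 of both genotypes on day 6, and the highest without DKI replicate 1 and DKI replicate 2. Chains lower were 1 in each fit on day 3 and 0 to 2 on day 6, and chains higher on day 3 were 0. From day 0 to 3 in DKI, genes lower ranged from 1226 to 1915 and higher from 750 to 1497. In WT from day 3 to 6, genes higher were 0 or 1. For the change of genotype effect from day 0 to 3 they ranged from 73 to 193 and from 52 to 158. Among values not called, genotype differences ranged on day 3 from −0.185 to 0.090 (*Itgb1*), −0.063 to 1.053 (*Itgb7*) and −0.484 to 0.263 (*Itgb2*), and on day 6 from −0.530 to 0.586 (*Itga6*) and −0.486 to 0.162 (*Itga4*). *Itgav* from day 0 to 3 ranged from −0.266 to 0.469 in WT and −0.544 to 0.278 in DKI. In WT from day 3 to 6, *Itgam* ranged from −0.175 to 0.226, *Itgb7* from −0.099 to 0.683, *Itgb2* from −0.359 to 0.067, *Itgal* from −0.619 to 0.002 and *Itgav* from −0.001 to 0.276. The change of genotype effect ranged from −0.629 to 0.078 (*Itgav*), −0.213 to 0.062 (*Itgb1*) and −0.479 to 0.268 (*Itgb2*). Differences of log2 ratios on day 0 ranged from −0.120 to 0.072 (*Itga4/Itgb7*), −0.087 to 0.276 (*Itga6/Itgb1*), −0.092 to 0.025 (*Itgav/Itgb1*) and −0.175 to 0.069 (*Itgam/Itgb2*). They ranged from −0.259 to 2.003 for *Itga4/Itgb7* on day 3, and on day 6 from −0.080 to 0.482 (*Itga4/Itgb1*), −0.130 to 0.618 (*Itga6/Itgb1*) and −0.043 to 0.319 (*Itgav/Itgb1*). Differences of shares on day 0 ranged from −1.36 to 2.26 points (*Itgal*) and −2.34 to 1.35 points (*Itgam*). With 3 libraries per group, the permutation tests cannot go below p = 0.1.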
